A study of Mus musculus with 4 samples.

Results

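The genes described here copy DNA and drive cells through mitosis, and their transcripts were measured in mouse molar tooth germs exposed to the dioxin TCDD. The set holds 46 genes, chosen by name: 18 of S phase, 18 of late G2 and mitosis, and 10 regulators of G1 and of cell cycle transcription. Ccna2, a cyclin of S phase and G2, is counted among the mitotic genes. Each of the 46 was looked up among the probe sets annotated to 1 gene symbol. There 43 of the 46 were found, with 59 probe sets, out of 8251 genes on the array. Of these, 39 genes (45 probe sets) had a mean signal of at least 50 and entered the test, 16 of S phase, 16 of mitosis and 7 of G1 and transcription.

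The tested tooth germs were NMRI mouse mandibular molar regions dissected at embryonic day 14 and grown for 24 h with 1 µM TCDD, and the controls were grown for 24 h with the solvent, DMSO, at 0.65%. There were 2 arrays per group, and for each array RNA was pooled from about 60 explants of 3 experiments, so the spread among embryos within a pool is not seen. TCDD replicate 1 and DMSO replicate 1 were labelled from 11 µg of RNA, TCDD replicate 2 from 8 µg and DMSO replicate 2 from 7 µg. Only the label of DMSO replicate 2 lists ascorbic acid in the medium. An explant holds dental epithelium and mesenchyme as well as blood, vessel and muscle cells, and in such bulk RNA fewer dividing cells and less RNA per dividing cell cannot be told apart.

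In a cycling cell, G1 cyclins and their kinases free the E2F transcription factors, which switch on the genes for nucleotide supply and for the replication fork. Later in the cycle, genes for chromosome condensation, the spindle and the mitotic kinases are switched on together, in large part through a promoter element called CHR and nearby CCAAT boxes. At about the cap stage reached in these cultures, the epithelium around the enamel knot and the mesenchyme divide actively, while the knot itself leaves the cycle. TCDD binds the aryl hydrocarbon receptor, a transcription factor that recognises the dioxin response element, and its activation is known to slow the passage from G1 to S phase in some cultured cell lines.

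The promoters of the members are shown because they set S-phase and mitotic genes apart in a way that the array values did not use. In the RefSeq promoter table (GRCm38.p6), which runs from 250 bases before to 50 bases after each gene's start, 38 of the 46 members matched, with 43 windows. Capitals mark letters searched on both strands: TTTCGCGC and TTTGGCGC for E2F, which can overlap each other, TTTGAA for CHR, CCAAT for the CCAAT box and GCGTG for the core of the dioxin response element. The 250 bases before the start are printed 5′ to 3′ for 3 S-phase and 3 mitotic genes, picked as examples after the matches were known. Matches that reach past the start are counted but not marked, namely a CCAAT match in Mcm5 and a CHR match in Ccnb2.
Mcm5 (S-phase, chr8:75109259-75109508, plus strand): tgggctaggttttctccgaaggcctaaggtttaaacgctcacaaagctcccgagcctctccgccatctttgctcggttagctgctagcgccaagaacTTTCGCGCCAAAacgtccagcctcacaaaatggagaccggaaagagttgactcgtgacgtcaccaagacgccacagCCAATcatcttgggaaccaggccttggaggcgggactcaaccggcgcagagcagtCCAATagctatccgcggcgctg
Mcm6 (S-phase, chr1:128359706-128359955, minus strand): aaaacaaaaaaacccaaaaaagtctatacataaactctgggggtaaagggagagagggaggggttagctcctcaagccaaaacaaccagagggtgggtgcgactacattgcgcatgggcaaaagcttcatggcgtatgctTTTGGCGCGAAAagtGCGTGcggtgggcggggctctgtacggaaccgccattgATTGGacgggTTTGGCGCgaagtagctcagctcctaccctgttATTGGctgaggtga
Tk1 (S-phase, chr11:117826015-117826264, minus strand, no match): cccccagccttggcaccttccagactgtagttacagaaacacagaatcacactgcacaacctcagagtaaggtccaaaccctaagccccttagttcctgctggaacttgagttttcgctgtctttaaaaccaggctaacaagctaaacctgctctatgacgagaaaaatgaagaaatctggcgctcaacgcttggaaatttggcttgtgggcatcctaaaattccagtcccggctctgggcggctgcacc
Top2a (mitotic, chr11:99024190-99024439, minus strand): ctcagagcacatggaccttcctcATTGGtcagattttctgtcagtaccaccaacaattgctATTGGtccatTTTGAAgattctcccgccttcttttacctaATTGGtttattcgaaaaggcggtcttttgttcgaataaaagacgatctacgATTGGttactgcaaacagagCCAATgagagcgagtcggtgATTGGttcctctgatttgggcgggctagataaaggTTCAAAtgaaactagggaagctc
Ube2c (mitotic, chr2:164769679-164769928, plus strand): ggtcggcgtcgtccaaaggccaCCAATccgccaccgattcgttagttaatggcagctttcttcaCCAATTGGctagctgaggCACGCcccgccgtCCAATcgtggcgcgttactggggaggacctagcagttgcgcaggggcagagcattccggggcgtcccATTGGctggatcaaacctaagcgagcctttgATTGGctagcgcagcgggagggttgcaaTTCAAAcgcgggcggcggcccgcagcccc
Ccnb2 (mitotic, chr9:70421555-70421804, minus strand): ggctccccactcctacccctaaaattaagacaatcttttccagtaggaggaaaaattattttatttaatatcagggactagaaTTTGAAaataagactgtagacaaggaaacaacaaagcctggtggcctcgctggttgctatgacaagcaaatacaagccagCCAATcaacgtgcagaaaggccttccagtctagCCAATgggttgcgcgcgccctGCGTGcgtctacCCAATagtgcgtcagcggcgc

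The letters TTTCGCGC or TTTGGCGC were found in 6 of 21 S-phase windows (28.6%), in 1 of 15 mitotic windows (6.67%) and in 0.813% of all 32851 windows of the table. In Mcm5 a match on each strand overlapped between 153 and 142 bases before the start, and Mcm6 held such a pair between 110 and 99 bases before the start and a further match at 47 to 40. CHR letters showed the other order, with 11 of 15 mitotic windows (73.3%), 3 of 21 S-phase windows (14.3%) and 17.9% of all windows. All 11 of those mitotic windows also held CCAAT, a combination found in 9.52% of S-phase windows and 6.95% of all windows. CCAAT, with or without CHR, was in 86.7% of mitotic and 57.1% of S-phase windows, against 37.4% of all windows. The dioxin response element core was in 60.0% of mitotic and 42.9% of S-phase windows, against 32.4% of all windows. The 7 windows of 6 G1 and transcription genes held no E2F or CHR letters, CCAAT in 28.6% and the dioxin element core in 42.9%. Some genes have more than 1 window, and the 21 S-phase windows come from 17 genes. These are matches of letters, not binding sites, and the windows of the whole table were not matched to the members for base composition.

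**Figure D1:**
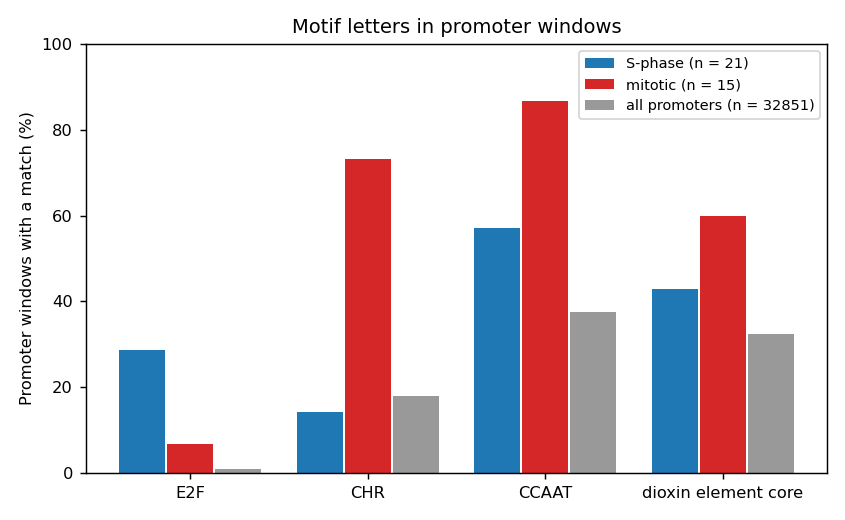
Share of promoter windows (y axis, percent) that hold the letters of 4 motifs (x axis) in S-phase members, mitotic members and all windows of the promoter table. E2F letters are in 28.6% of S-phase and 6.67% of mitotic windows, and CHR letters in 73.3% of mitotic and 14.3% of S-phase windows.

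Signals are in MAS5 units, an intensity scale on which each array averages about 100, and differences are TCDD minus DMSO on the log2(signal + 16) scale, where the added 16 shrinks the fold changes of weakly hybridised genes. None of the 39 members passed limma's adjusted p of 0.05 over all 5783 probe sets (4 of which passed, 0.0692%), and the limma adjusted p of every member was 0.997. At an unadjusted p under 0.05 there was 1 member, Tk1, where 2.59% of all probe sets reached that level. In the same samples the 2 receptor targets looked at, both cytochrome P450 genes, were higher with TCDD and passed limma's adjusted p. Cyp1b1 had signals of 519.9 and 455.0 with TCDD, against 98.6 and 77.8 with DMSO. Cyp1a1, a classical receptor target, had signals of 194.8 and 210.5 with TCDD, against 14.7 and 12.7 with DMSO. As its DMSO mean was 13.7, Cyp1a1 entered the test through its TCDD arrays. The 95% interval of the difference lay within 2-fold in either direction for 37 of the 39 members, close to the 94.1% of all genes for which this held, and the exceptions were Tk1 and Ccnd2.

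The S-phase genes had small differences of mostly positive sign and the mitotic genes small differences of mostly negative sign. Of 16 S-phase genes 13 had a difference above 0, and of 16 mitotic genes 5 did, where 52.9% of all genes tested did. The contrast was not seen in the lists of other genes given below. There 18 of 33 replication genes and 20 of 39 mitosis genes had a difference above 0. The median difference was 0.04 for S-phase genes, -0.07 for mitotic genes and 0.02 for all genes (1 probe set each). For comparison, the standard error of a single member's difference was between 0.18 and 0.28, and the sign of each median depended on the DMSO arrays: without DMSO replicate 1 the S-phase median was -0.03 and the mitotic one -0.16, and without DMSO replicate 2 they were 0.08 and 0.03. The S-phase median exceeded the mitotic one by 0.11, and by 0.10, 0.02, 0.04 and 0.09 in the 4 pairs of a TCDD with a DMSO array. Leaving out 1 array at a time gave 0.06 to 0.13, with 0.06 without DMSO replicate 2. No p was computed for these medians, since the genes were chosen with results known and share their arrays.

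**Figure D2:**
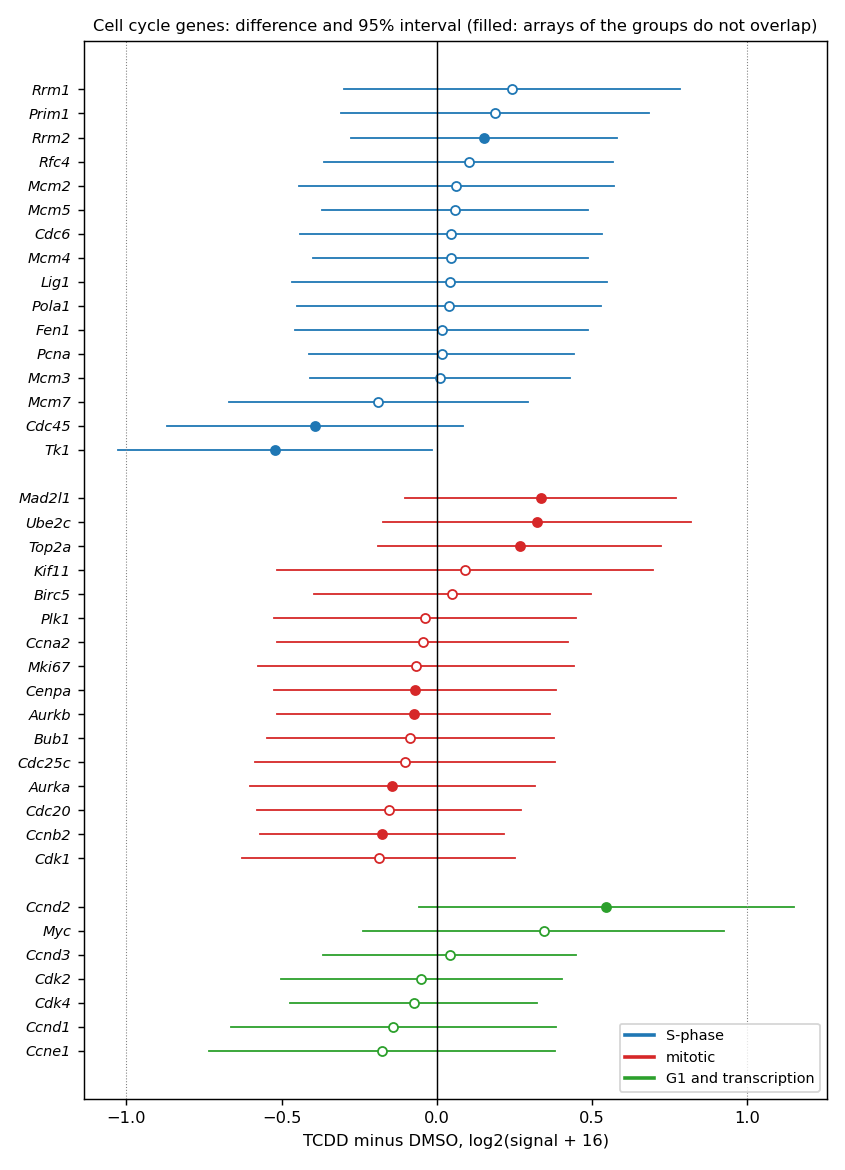
Difference of each tested member (x axis, TCDD minus DMSO on the log2(signal + 16) scale, point) with its 95% interval from limma (line), by class. Filled points are genes whose 2 TCDD arrays both lie above or both below the 2 DMSO arrays, and dotted lines mark a 2-fold change. The S-phase points lie between -0.52 and 0.24 and the mitotic points between -0.19 and 0.34.

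The TCDD arrays were both above or both below the DMSO arrays, without overlap, in 11 of the 39 members (28.2%) and in 30.2% of all genes tested. Higher in TCDD were 5 members, against 16.1% of all genes, and lower were 6, against 14.1%. By class there were 3 of 16 S-phase genes, 7 of 16 mitotic genes and 1 of 7 G1 regulators. A difference larger than both replicate differences was seen in 6 members (15.4%), Tk1, Cdc45, Mad2l1, Ube2c, Ccnb2 and Aurkb, where 17.8% of all genes had one. Both shares for the members as a whole were near those of all genes.

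Among genes of nucleotide supply, Tk1, the salvage enzyme thymidine kinase of dividing cells, had the most negative difference. Its signals were 167.9 and 237.9 with TCDD, against 336.8 and 256.7 with DMSO. Both TCDD arrays lay below both DMSO arrays, and the difference was -0.52 ± 0.23 (SE), with a 95% interval of -1.03 to -0.02. That interval is not adjusted for the number of probe sets, and the limma adjusted p was 0.997. The difference was -0.29 without TCDD replicate 1 and -0.75 without TCDD replicate 2. Rrm2, the small subunit of ribonucleotide reductase, which makes deoxynucleotides, had signals of 264.9 and 258.7 with TCDD, against 219.5 and 249.3 with DMSO. Its TCDD arrays were both higher, by 0.15 ± 0.19 (SE), which was 0.07 without DMSO replicate 1 and 0.24 without DMSO replicate 2. Rrm1, the large subunit of the same enzyme, averaged 266 ± 8.56 with TCDD and 230 ± 84.2 with DMSO (SD, n = 2 each), a difference of 0.24 ± 0.25 (SE). The spread of Rrm1 in DMSO came from 170.0 in replicate 1 and 289.1 in replicate 2, so the groups overlapped.

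Of the genes that license and open origins, Cdc45, a component of the active replicative helicase, was the one whose groups did not overlap at its brightest probe set. It had signals of 78.7 and 86.1 with TCDD, against 125.3 and 101.8 with DMSO. Both TCDD arrays were lower, and the difference was -0.39 ± 0.22 (SE), and -0.26 without DMSO replicate 1. Of the Mcm genes, which encode the ring of that helicase, Mcm2, Mcm3, Mcm4 and Mcm5 differed by between 0.01 and 0.06 at their brightest probe sets, and Mcm7 by -0.19 ± 0.22 (SE). Mcm6 was too dim to be tested. Mcm3 had the smallest difference of the class, with signals of 312.0 and 293.9 with TCDD, against 311.2 and 290.0 with DMSO at the brighter of its probe sets, and its sign turned under quantile normalization (-0.026). The dimmer one had 170.4 and 141.4 with TCDD, against 148.3 and 126.2 with DMSO, and the groups overlapped at both. Its difference was 0.16, and 0.04 without TCDD replicate 1. Mcm2 averaged 176 ± 3.75 with TCDD and 172 ± 50.7 with DMSO, and Mcm4 261 ± 5.45 and 254 ± 39.8 (SD, n = 2 each). Mcm5 averaged 413 ± 57.6 with TCDD and 394 ± 30.3 with DMSO, and Mcm7 258 ± 65.6 and 292 ± 13.5 (SD, n = 2 each). Cdc6, the loading factor that brings the Mcm ring to origins, averaged 93.8 ± 12.3 with TCDD and 90.4 ± 12.9 with DMSO (SD, n = 2 each).

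The genes of the replication fork all overlapped between the groups at their brightest probe sets. Pcna, the sliding clamp, averaged 748 ± 157 with TCDD and 732 ± 9.41 with DMSO (SD, n = 2 each), a difference of 0.02 ± 0.19 (SE). Pola1, the catalytic subunit of polymerase alpha, differed by 0.04 and Prim1, the primase that lays the RNA primer, by 0.19. Rfc4, a subunit of the clamp loader, differed by 0.10, Fen1, the flap nuclease, by 0.02 and Lig1, the ligase that seals Okazaki fragments, by 0.04. Their standard errors were all at least 0.19, so each of these differences was under 1 standard error.

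The mitotic genes had differences of both signs, and 0 of the 16 had an unadjusted limma p under 0.05. Mad2l1, a spindle checkpoint protein that restrains the anaphase-promoting complex, had signals of 357.2 and 306.7 with TCDD, against 242.2 and 277.3 with DMSO. Both TCDD arrays were higher, by 0.34 ± 0.20 (SE). Ube2c, the ubiquitin-conjugating enzyme of that complex, had signals of 80.1 and 70.7 with TCDD, against 60.0 and 54.1 with DMSO. Both TCDD arrays were again higher, by 0.32 ± 0.22 (SE), at a probe set whose suffix, r, marks relaxed design rules. Top2a, the topoisomerase that untangles sister chromatids, had signals of 237.1 and 192.1 with TCDD, against 164.2 and 185.7 with DMSO. The gap between its nearest arrays was 0.05 on the log2 scale, and the difference was 0.27 ± 0.21 (SE), which was 0.13 without TCDD replicate 1 and 0.41 without TCDD replicate 2.

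The mitotic kinases and cyclins all had differences below 0 at their brightest probe sets, each smaller than its standard error. Ccnb2, a cyclin that activates Cdk1 at mitotic entry, had signals of 549.2 and 533.1 with TCDD, against 586.6 and 641.9 with DMSO. Both TCDD arrays were lower, with a difference of -0.18 ± 0.18 (SE), and -0.11 without DMSO replicate 2. Aurka, the kinase of the spindle poles, had signals of 118.9 and 99.6 with TCDD, against 121.4 and 122.3 with DMSO, a difference of -0.14 ± 0.21 (SE), and -0.03 without TCDD replicate 2 and -0.25 without TCDD replicate 1. Its higher TCDD array lay only 0.03 on the log2 scale below the lower DMSO array. Aurkb, the kinase of the chromosomal passenger complex, had signals of 135.5 and 135.1 with TCDD, against 144.6 and 142.2 with DMSO. This was the tightest member, with replicate differences of 0.004 and 0.02, and a difference of -0.08 ± 0.20 (SE). The standard error is larger than those replicate differences because limma draws it toward that of probe sets of like signal. Cenpa, the histone of the centromere, was also lower without overlap, by -0.07, with its nearest arrays 0.01 apart.

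Plk1, a kinase needed for mitotic entry and exit, had 3 probe sets in the test, and they differed in sign. At the dimmest its signals were 80.7 and 81.8 with TCDD, against 96.8 and 128.3 with DMSO, a difference of -0.39 ± 0.22 (SE), and -0.21 without DMSO replicate 2 and -0.57 without DMSO replicate 1. The brightest had 171.3 and 227.9 with TCDD, against 181.0 and 228.7 with DMSO, and differed by -0.04 ± 0.22 (SE), the smallest difference of the class. At the remaining one the signals were 136.6 and 105.8 with TCDD, against 101.3 and 125.2 with DMSO, a difference of 0.08 ± 0.22 (SE). Only the dimmest did not overlap, and all 3 carry suffixes (f or g) that mark probes shared with other sequences. Cdc25c, the phosphatase that activates Cdk1, had 95.5 and 87.4 with TCDD, against 87.6 and 112.4 with DMSO, at its brighter probe set. The dimmer one had 77.3 and 62.5 with TCDD, against 63.5 and 94.7 with DMSO, and both differed by between -0.13 and -0.10 with overlapping groups.

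The other mitotic members overlapped between the groups. Cdk1, the kinase of mitotic entry, averaged 382 ± 68.5 with TCDD and 434 ± 26.5 with DMSO, and Ccna2, a cyclin of S phase and G2, 268 ± 55.2 and 276 ± 29.7 (SD, n = 2 each). Cdc20, the activator of the anaphase-promoting complex, averaged 399 ± 32.4 with TCDD and 447 ± 57.5 with DMSO, and Bub1, a checkpoint kinase, 104 ± 4.53 and 112 ± 13.1 (SD, n = 2 each). Birc5, or survivin, a partner of Aurkb, differed by 0.05 and Kif11, a motor that separates the spindle poles, by 0.09. Mki67, the proliferation antigen Ki-67, had signals of 205.1 and 137.1 with TCDD, against 163.8 and 190.4 with DMSO. The 2 TCDD arrays of Mki67 lay on either side of both DMSO arrays, and its difference was -0.07 ± 0.23 (SE).

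**Figure D3:**
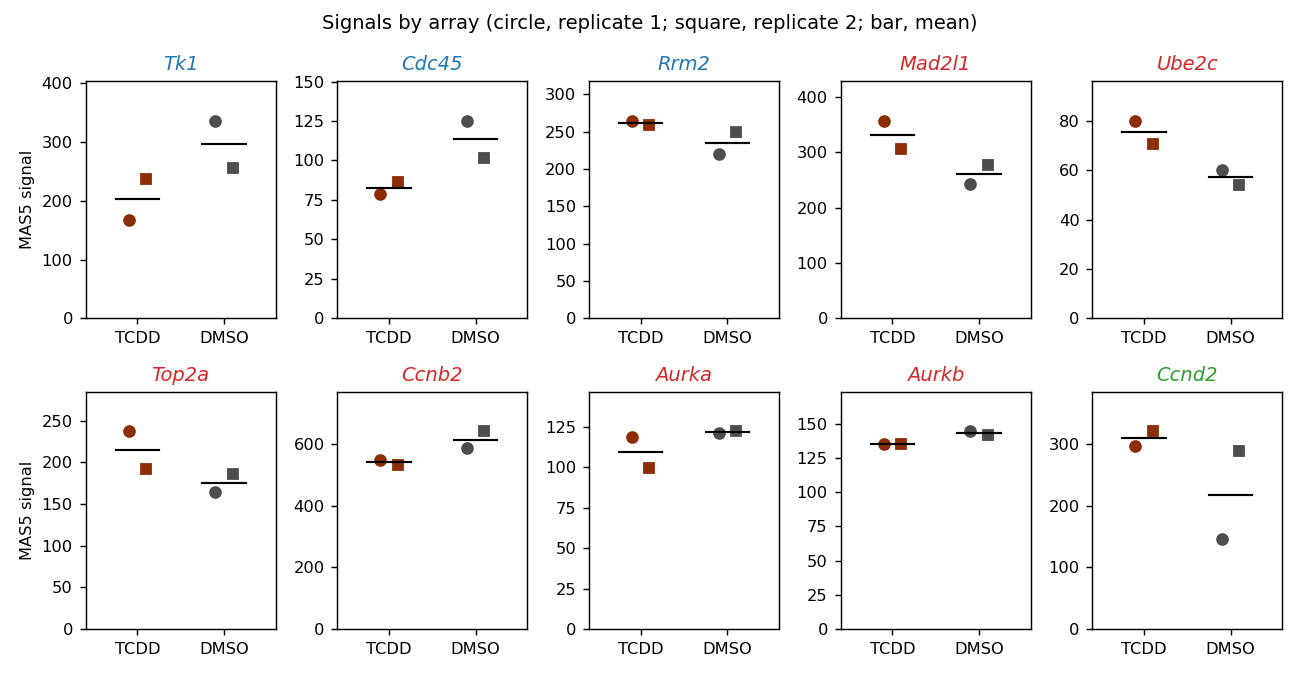
MAS5 signal by array (y axis, linear from 0) for 10 of the 11 members whose groups did not overlap, leaving out Cenpa, with TCDD left and DMSO right. Circles are replicate 1, squares replicate 2 and bars group means, with S-phase genes titled in blue, mitotic genes in red and the G1 cyclin in green. The gap between groups is widest relative to the replicates for Aurkb and Ube2c, while in Ccnd2 DMSO replicate 1 stands alone at 146.6.

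In the G1 class, Ccnd2, a D-type cyclin, had the most positive difference of all members. It had signals of 297.7 and 320.9 with TCDD, against 146.6 and 288.8 with DMSO. The groups did not overlap, but the size rested on DMSO replicate 1: the difference was 0.55 ± 0.27 (SE) with all arrays, 0.09 without DMSO replicate 1 and 1.00 without DMSO replicate 2. Ccnd3, another D-type cyclin, had the smallest difference of the class, with 426.1 and 395.1 with TCDD, against 385.9 and 410.9 with DMSO, and its sign turned under quantile normalization (-0.008). Ccnd1 had 159.8 and 124.3 with TCDD, against 191.0 and 128.7 with DMSO, at its brighter probe set. At the dimmer one it had 66.7 and 82.7 with TCDD, against 95.1 and 77.6 with DMSO, and both probe sets overlapped. The dimmer one moved to between -0.30 and -0.05 with 1 array left out. The 3 D-type cyclins, which pair with the same kinases, thus had differences of 0.55, 0.04 and -0.14 at their brightest probe sets, in the order Ccnd2, Ccnd3 and Ccnd1.

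Cdk4, the kinase that the D-type cyclins activate, had 983.9 and 1193.7 with TCDD, against 1047.2 and 1246.1 with DMSO, at its brighter probe set. At the dimmer one it had 366.9 and 267.7 with TCDD, against 548.3 and 318.6 with DMSO. The dimmer probe set differed by -0.40 ± 0.26 (SE) and the brighter by -0.08 ± 0.18 (SE), both with overlapping groups. The dimmer one was at -0.02 without DMSO replicate 1 and -0.78 without DMSO replicate 2. Ccne1, the cyclin of the G1 to S transition, averaged 103 ± 12.5 with TCDD and 122 ± 44.3 with DMSO, and its kinase Cdk2 113 ± 8.06 and 118 ± 3.82 (SD, n = 2 each). Myc, a growth transcription factor, had signals of 66.8 and 52.4 with TCDD, against 33.4 and 55.2 with DMSO, a difference of 0.34 ± 0.26 (SE). It overlapped between groups, and as its DMSO mean was 44.3, it entered the test through its TCDD arrays. The median of the 7 G1 and transcription members was -0.05. When any 1 array was left out the class median lay between 0.001 and 0.08, 0.08 without DMSO replicate 1. The class was then not always the same 7 genes, since the filter was applied to the remaining arrays. Myc fell out without TCDD replicate 1, and E2f1 came in without TCDD replicate 2 or DMSO replicate 2.

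For most members the larger replicate difference was at least as large as the treatment difference. These are unlike measures, since the treatment difference is between means of 2 arrays and each replicate difference between single arrays. With no treatment effect the replicate difference is therefore expected to be the larger. The median size of the TCDD minus DMSO difference was 0.09 for the 39 members and 0.14 for all genes. Between the replicates, the median size was 0.21 in TCDD and 0.20 in DMSO for the members, and 0.21 and 0.21 for all genes. Ccnd2, Rrm1 and Mcm2 had lower signals in DMSO replicate 1 than in DMSO replicate 2, with log2 differences of replicate 1 minus replicate 2 of -0.91, -0.71 and -0.56. In Kif11 replicate 1 was the lower one in both groups, with 84.8 and 126.6 with TCDD and 73.0 and 126.6 with DMSO. With each gene centred on its mean over the 4 arrays, the median of the 16 S-phase genes was 0.05 and 0.02 in TCDD replicates 1 and 2, against -0.05 and 0.06 in DMSO replicates 1 and 2. For the 16 mitotic genes it was -0.001 and -0.02 in TCDD, against -0.06 and 0.10 in DMSO. In both classes the TCDD arrays lay between the DMSO arrays. Leaving out 1 array turned the sign for Ccnd3 and for probe sets of Mcm3, Plk1, Cdc25c, Ccnd1 and Cdk4, whose differences were small.

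**Figure D4:**
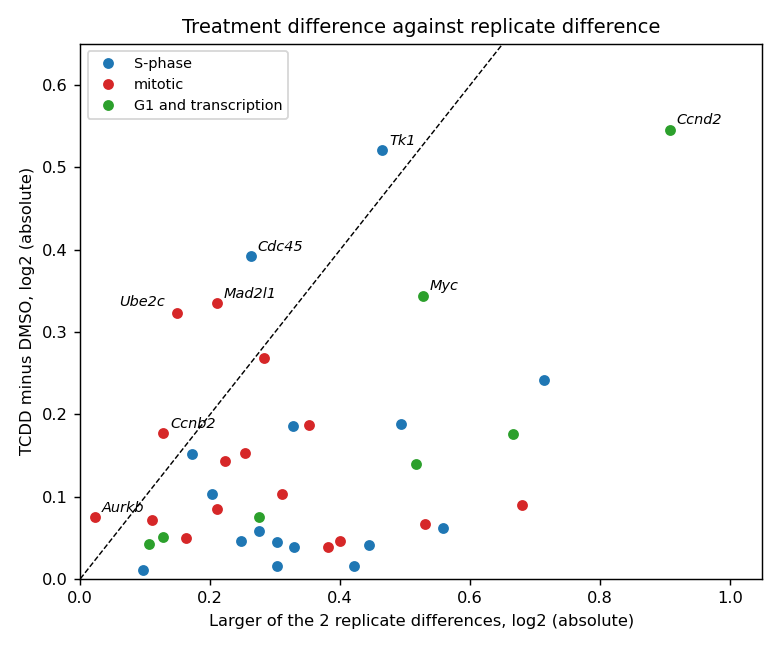
Size of the TCDD minus DMSO difference (y axis, log2, absolute) against the larger of the replicate differences within TCDD and within DMSO (x axis, log2, absolute) for the 39 tested members, coloured by class. The dashed line marks equal sizes, and 6 members lie above it, among them Tk1, Cdc45, Mad2l1 and Ube2c. The y axis compares group means and the x axis single arrays, so points are expected below the line without a treatment effect.

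Members below the mean signal of 50 were Mcm6, a helicase subunit, with a mean of 9.3, Ccne2, a G1 to S cyclin, with 10.4, Mybl2, a transcription factor of the mitotic program, with 39.5, and E2f1 with 49.3 at its brightest probe set. At so low a signal nothing here says whether they were above background, and the signals of Mcm6 and Ccne2 had been stored as dates and were turned back into numbers. E2f1, the factor that drives S-phase genes, had 60.7 and 40.5 with TCDD, against 49.6 and 46.4 with DMSO. It stood just below the minimum, with Myc just above it at 52.0. That E2f1 probe set carries the suffix f, and the other one of E2f1 averaged 23.25. Mybl2 had 34.5 and 36.8 with TCDD, against 50.5 and 36.3 with DMSO. Dim second probe sets of tested members, their signals likewise restored, at times did not overlap where the bright one did: Lig1 had 5.6 and 3.7 with TCDD, against 3.4 and 2.3 with DMSO. Mcm5 had 9.8 and 5.6 with TCDD, against 20.1 and 24.6 with DMSO, and Bub1 had 13.6 and 4.5 with TCDD, against 18.2 and 17.1 with DMSO.

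Other genes of the same machinery, from 2 lists chosen by function, showed the same lack of calls. Of 54 other replication genes listed, 45 were on the array and 33 were tested: none passed the limma adjusted p or an unadjusted p under 0.05, 18 were on the higher and 15 on the lower side, and the median was 0.01. Of 60 other mitosis genes listed, 47 were on the array and 39 were tested: none passed the limma adjusted p and 1 had an unadjusted p under 0.05, with 20 on the higher and 19 on the lower side and a median of 0.004. Groups did not overlap in 13 genes of each list. Of the 13 replication genes 5 were higher and 8 lower (39.4% in all), and of the 13 mitosis genes 4 were higher and 9 lower (33.3% in all), against 30.2% of all genes, 16.1% higher and 14.1% lower. Chaf1a and Chaf1b, subunits of the chromatin assembly factor that deposits histones behind the fork, were lower without overlap. Chaf1a had 44.0 and 42.3 with TCDD, against 79.9 and 51.4 with DMSO, and Chaf1b 53.0 and 64.1 with TCDD, against 70.1 and 90.8 with DMSO. Both TCDD arrays of Chaf1a were under 50, so it entered the test only through its DMSO arrays. Rfc1, the large subunit of the clamp loader, had 172.5 and 174.2 with TCDD, against 120.0 and 152.7 with DMSO. Their differences were -0.44, -0.37 and 0.32 on the log2 scale, each with a limma adjusted p of 0.997.

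On the mitotic side, Cdc16, a subunit of the anaphase-promoting complex, had 446.4 and 485.0 with TCDD, against 288.9 and 351.8 with DMSO, a difference of 0.52 ± 0.19 (SE). Foxm1, a transcription factor of mitotic genes, had 109.0 and 109.0 with TCDD, against 179.7 and 111.3 with DMSO, so that its lower TCDD level rested on DMSO replicate 1. Kif22, a chromosome-arm motor, had 401.4 and 405.4 with TCDD, against 551.5 and 463.6 with DMSO. Both were read from probe sets with suffixes, g for Foxm1 (shared probes) and r for Kif22 (relaxed design rules). Cks1b and Cks2, small subunits of the cyclin-dependent kinases, were chosen after their values were seen: Cks1b had 527.7 and 591.7 with TCDD, against 727.6 and 665.0 with DMSO, and Cks2 386.4 and 404.8 with TCDD, against 503.3 and 474.2 with DMSO. Both were lower without overlap, by -0.31 and -0.29, with a limma adjusted p of 0.997 each.

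The mix of cell types was read from marker lists, each gene by its brightest probe set. Mesenchyme markers summed to 4973.3 and 5196.0 with TCDD and 4336.1 and 4826.4 with DMSO. Epithelium markers summed to 2520.9 and 2794.9 with TCDD and 1852.8 and 2445.3 with DMSO. Both sums were higher in the TCDD arrays but rested largely on a few bright genes. Col1a1 had 2400.3 and 2277.0 with TCDD, against 1960.8 and 1956.0 with DMSO. Barx1, Msx1 and Vim were lower on average with TCDD, with overlapping groups, while the other mesenchyme markers had differences above 0. Barx1 had 179.1 and 256.8 with TCDD, against 300.6 and 249.5 with DMSO, and Msx1 differed by -0.10. Vim, too dim to be tested, averaged 21.4 with TCDD and 27.05 with DMSO. Dsp had 1379.2 and 1566.5 with TCDD, against 936.4 and 1346.5 with DMSO, and Perp was also higher. The dimmer Cdh1 went the other way, with 101.2 and 120.5 with TCDD, against 170.3 and 141.1 with DMSO, as did Fgf4. Over all genes tested 16.1% were higher and 14.1% lower without overlap, beside which the counts of markers are given. Of 11 mesenchyme markers on the array 3 were higher without overlap, and of 9 epithelium markers 2 were higher and 3 lower, with the dim, untested Krt14 among the lower. The keratin genes Krt5, Krt14 and Krt15 stayed at or below 10.8 on every array, though Dsp, Perp, Cdh1 and Shh gave signal. Red cell markers summed to 3680.3 and 4843.3 with TCDD and 4494.0 and 4976.8 with DMSO, overlapping in sum, with 2 of 6 genes lower without overlap, 1 of them the untested Epb42, at most 7.8 on every array. Macrophage markers summed to 1003.5 and 974.0 with TCDD and 831.6 and 727.2 with DMSO. Of 9 macrophage markers on the array 4 were higher without overlap, and Adgre1, the F4/80 antigen of mature macrophages, had at most 18.9. Endothelial markers summed to 685.4 and 670.2 with TCDD and 734.3 and 687.5 with DMSO, and of 8 on the array 1 was higher and 1 lower without overlap. Muscle markers followed the replicate number, at 590.6 and 256.7 with TCDD and 430.9 and 221.5 with DMSO. No marker passed the limma adjusted p. The part of these differences in the members' values was not tested.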

How the data were processed

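RNA of cultured tooth germs was measured on 4 murine U74v2A oligonucleotide arrays, 1 per pool. The deposited values are hybridisation intensity signals, 1 per probe set and array, which the authors computed with Affymetrix Microarray Suite 5.0 (MAS5) and scaled to a target of 100, per the labels and the design text. No genome build applies to the values, and probe-level files and detection calls were not used here. The number of arrays limits the precision, and p-values measure only the spread between these pools, which may share experiments.

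In 18515 of 49952 cells (37.1%) the table holds a spreadsheet day serial in place of a signal under 32, and these were turned back into day.month. After this the trimmed mean (2% off either end) came to 100.05 on each array. Gene names came from the platform annotation, checked through Entrez IDs in the GRCm38.p6 gene table, using the 10855 of 12488 with 1 symbol. Tyms shares its 2 probe sets with a pseudogene and was not counted as found. No array values of Ccnb1 and Bub1b were analysed here, and these genes enter only the promoter counts.

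TCDD was compared with DMSO in limma 3.58.1 (R 4.3.3; lmFit, eBayes with a variance trend) on log2(signal + 16), over the 5783 probe sets, controls left out, that averaged 50 or more across arrays. P-values were adjusted by Benjamini-Hochberg over all of them, with a threshold of 0.05, and the fit had 10.8 degrees of freedom in total. With 2 arrays a side, the lowest two-sided p of an exact permutation test is 0.33, so none was run. The procedure was tested on simulated data, with changes larger than any tested member's difference in the main fit. That test therefore does not say whether differences of the members' size would be called. A gene stands by its brightest probe set.

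Per-array values are given, by rule, for members past the adjusted p, for up to 6 per class whose groups did not overlap, for members with several tested probe sets and for the smallest difference of each class. Other members are given by means or differences, and those with arrays printed beyond the rule (Mki67, Kif11, Myc, E2f1, Mybl2, and the dim probe sets of Lig1, Mcm5 and Bub1) were chosen after their values were seen. Cenpa, Rrm1 and the marker genes were likewise named outside it. The same rule names up to 3 genes of each other list. The members, lists and alternatives were chosen with earlier results of these data known. Promoter sequences are from RefSeq. Alternatives tried were other offsets, filters and scalings, the day serials set to 16, no variance trend, a replicate block, averaged probe sets and leaving out each array.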

Additional observations from a re-analysis of the deposited data

How the results depend on the processing

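No member passed limma's adjusted p under the 12 alternatives that refitted it (averaging probe sets gave medians only), and among 258 values of the 22 named probe sets under 12 alternatives, 242 kept their sign. The 16 that turned belong to 8 probe sets with small differences. Under quantile normalization these were Ccnd3 (-0.008) and the brighter probe set of Mcm3 (-0.026). With 1 array left out, values ranged from -0.011 to 0.094 for Ccnd3 and from -0.037 to 0.059 for the brighter Mcm3 probe set. They ranged from -0.398 to 0.118 for the brighter Ccnd1 probe set, from -0.212 to 0.063 for the brighter Cdk4 one, and from -0.258 to 0.052 and -0.371 to 0.106 for the brighter and the dimmer of Cdc25c. For the brightest and the second brightest probe set of Plk1 they ranged from -0.229 to 0.152 and from -0.079 to 0.246. With 1 array left out, the S-phase median lay between -0.028 and 0.083, the mitotic one between -0.157 and 0.027 and the G1 one between 0.001 and 0.08. S-phase minus mitotic lay between 0.057 and 0.128, and was 0.08 with an offset of 64. The filter was applied anew to the arrays left, so the G1 members counted were not always the same. In these fits the lone array of a group is assumed to vary like the others. The probe sets called over the whole table numbered 4, with 2 to 5 when 1 array was left out and 2 without the filter, where more dim probe sets are tested. With the replicate number as a block 32 were called, 0 of them members, and the limma adjusted p was 0.302 for Tk1 and 0.261 for Ccnd2. Replicate 1 minus replicate 2 correlated between TCDD and DMSO at r = 0.381 across 5783 probe sets, which are not independent. Across the 39 members r was 0.095, and the labels give no pairing by number. Dim signals and 2 arrays per group limit what could be seen: the typical standard error of a member was 0.21.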

Other observations

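Tyms, the thymidylate synthase gene, is annotated together with a pseudogene at 2 probe sets, so the values cannot be assigned to Tyms alone. At the brighter one the signals were 190.5 and 165.5 with TCDD, against 191.1 and 208.5 with DMSO, both TCDD arrays lower, by -0.16 ± 0.20 (SE). At the dimmer one they were 126.8 and 109.8 with TCDD, against 95.7 and 112.5 with DMSO, a difference of 0.16 ± 0.21 (SE) with overlapping groups. The limma adjusted p was 0.997 at both.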
